A study of Bos taurus with 32 samples.

Results

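Extracellular matrix genes and their integrin receptors were followed in the liver of dairy cows over calving. They were taken by gene symbol: every collagen, laminin, integrin chain, matrix metalloproteinase and tissue inhibitor of metalloproteinases with an annotated probe set, plus BGN, DCN, LUM, FN1, SPARC, FBLN1 and FBN1. This gave 71 genes of the 9155 genes with a single annotated symbol, and each was read from the probe set that averaged highest across the 32 arrays. Of these, 4 genes (ITGB1BP1, ITGB1BP2, ITGB3BP and ITGBL1) share only the start of an integrin symbol and are not integrin chains.

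Liver RNA of Ayrshire cows was hybridised to Affymetrix bovine arrays, 32 arrays of 12 cows in all. Cows ate a high-energy diet (HIGH) or a controlled-energy diet (CON) over the 6 weeks leading up to predicted calving. The groups were HIGH -8 d (n = 5) and CON -8 d (n = 5), taken before predicted calving, then HIGH 1 d (n = 6) and CON 1 d (n = 4), and HIGH 9 d (n = 6) and CON 9 d (n = 6), taken after actual calving. Every cow gave several arrays and 8 gave all 3 days, so cow number was kept as a block in the fit. Each array holds the RNA of a biopsy of a few milligrams, and all cows calved, so no group lacks calving.

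The hepatic matrix is a thin scaffold. Fibrillar collagens, held in fibrils with small proteoglycans such as biglycan (BGN) and decorin (DCN), lie mainly around portal tracts and in the capsule, and stellate cells and portal fibroblasts make most of them. Laminins and type IV collagen form basement membranes around vessels and bile ducts. Hepatocytes secrete plasma fibronectin (FN1). Integrins are pairs of an alpha and a beta chain that bind these proteins at the cell surface, metalloproteinases cut the matrix, and TIMPs block them.

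Values are the authors' log2 RMA values, which compare arrays within a probe set and not one probe set with another. Array medians lay between 5.87 and 5.93, and 33 of the 71 probe sets used averaged at or below the median probe set (5.90). Deviations from the group means correlated between the days of a cow, with r averaging 0.323 (28 pairs of arrays, across probe sets, which are not independent replicates). The 3' minus 5' signal of the elongation factor control was -0.68 ± 0.12 at -8 d (SD, n = 10), -1.07 ± 0.15 at 1 d (n = 10) and -0.81 ± 0.13 at 9 d (n = 12). On the same days the GAPDH control read 0.54 ± 0.06, 0.53 ± 0.13 and 0.58 ± 0.06. The actin control read 1.60 ± 0.27, 1.61 ± 0.23 and 1.78 ± 0.70. The elongation factor control therefore moved with the day, while those of GAPDH and actin moved by less than their SDs. The part of RNA quality in the time results was not tested. Both HIGH 1 d replicate 6 and HIGH 9 d replicate 3 stood apart in interstitial collagens, as described below, and the counts are given with and without them.

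Between -8 d and 1 d, 11 of the 71 genes passed the threshold (limma, adjusted p under 0.05, both diets averaged). The 5 that rose were the integrin chains ITGAV, ITGB4, ITGA5 and ITGB1 and the transmembrane collagen COL13A1. The 6 that fell were BGN, COL12A1, COL5A3, the laminin chain LAMA4, the leukocyte integrin chain ITGAM and the metalloproteinase MMP23. These were 7.04% rising and 8.45% falling, against 16.5% and 12.3% of all genes, so the genes were called no more often than the array as a whole. Most changes were small: 1 gene, COL12A1, passed 1.5-fold, and the median change was -0.05 on the log2 scale, against 0.00 over all genes. Values were negative for 48 of 71 genes (67.6%), against 49.9% of all genes. In whole biopsies, fewer cells of a type and less RNA per cell cannot be told apart.

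By 9 d, few genes differed from -8 d. ITGA5 was higher (1 of 71, or 1.41%, against 7.79% of all genes), and BGN and FN1 were lower (2 of 71, or 2.82%, against 5.08%). Against 1 d, LAMA4 and ITGB3 were higher at 9 d (2.82%, against 7.44% of all genes), and FN1, ITGAV, ITGB4, ITGB1 and ITGA2 were lower (7.04%, against 10.0%). The contrasts of 1 d with -8 d and of 9 d with 1 d share the 1 d arrays, so a value that goes one way in the first and the other way in the second is not an independent result.

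**Figure D1:**
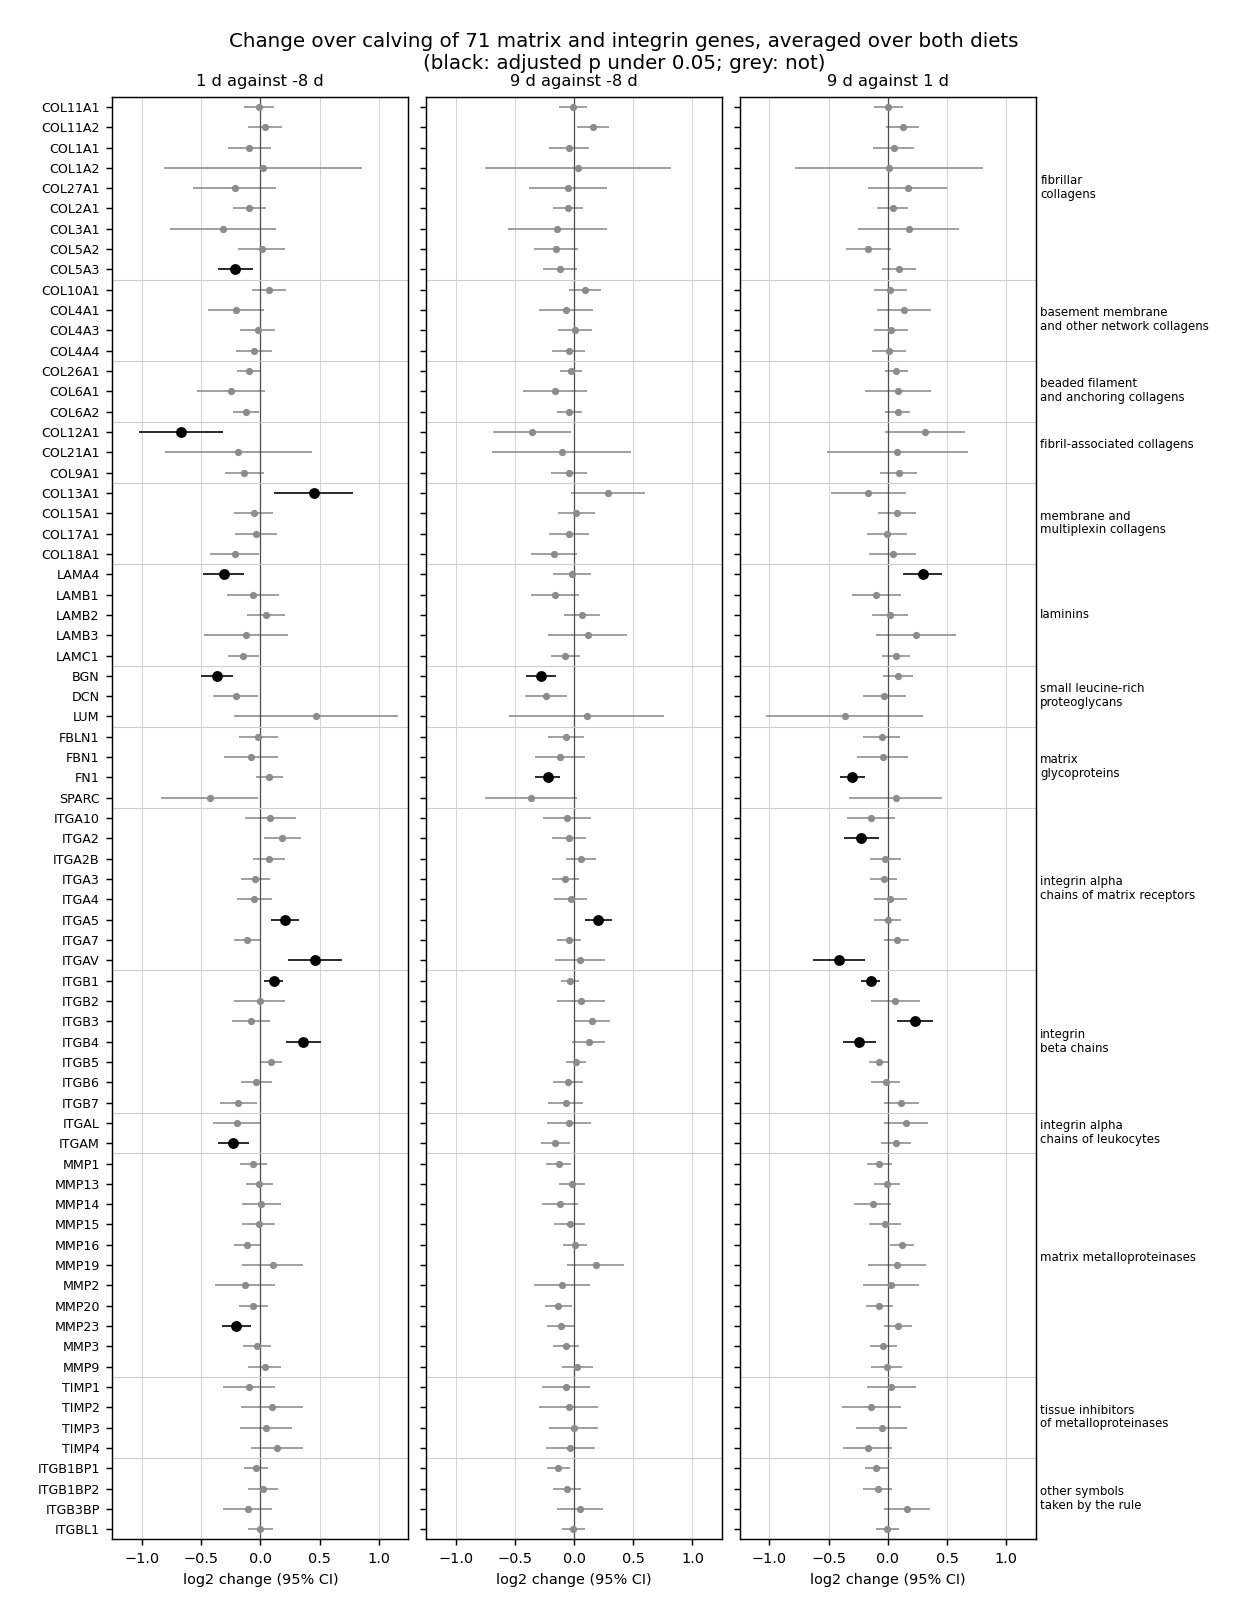
Log2 change (x axis) of each of the 71 genes (y axis, grouped by role) for 1 d against -8 d, 9 d against -8 d and 9 d against 1 d, averaged over both diets; bars are 95% confidence intervals, black points passed the adjusted threshold and grey points did not. The integrin chains ITGAV, ITGB4, ITGA5 and ITGB1 lie to the right at 1 d, COL12A1 lies farthest to the left at -0.67, and COL1A2, LUM and COL21A1 have the widest intervals.

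ITGAV, an alpha chain that pairs with several beta chains to bind vitronectin and fibronectin, rose at 1 d. It read 9.14, 9.48, 9.61, 9.79, 9.80 and 9.87 on the HIGH 1 d arrays and 9.12, 9.52, 9.63 and 9.65 on the CON 1 d arrays. At -8 d the HIGH arrays read 8.77, 9.00, 9.16, 9.19 and 9.27 and the CON arrays 9.00, 9.05, 9.11, 9.14 and 9.39. Thus 8 of the 10 arrays at 1 d lay above every array at -8 d, and all 8 cows sampled on both days were higher at 1 d. The change was 0.46 (SE 0.11, 1.38-fold, adjusted p = 0.0028). At 9 d the HIGH arrays ran from 8.71 to 9.31 and the CON arrays from 8.83 to 10.06. All 10 cows with both days were lower at 9 d than at 1 d (-0.41, SE 0.11, adjusted p = 0.0079), although CON 9 d held the single highest array. The second ITGAV probe set gave 0.40 for 1 d against -8 d and -0.36 for 9 d against 1 d, and passed in both.

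ITGB4, the beta chain of the laminin receptor of hemidesmosomes, also rose at 1 d. The HIGH 1 d arrays read 5.10 to 5.49 with a median of 5.34, and the CON 1 d arrays read 5.14, 5.25, 5.35 and 5.43. The HIGH -8 d arrays read 4.83, 4.87, 4.89, 5.01 and 5.14, and the CON -8 d arrays 4.68, 4.70, 4.97, 5.06 and 5.18. The days overlapped slightly, with 7 of 10 arrays at 1 d above all arrays at -8 d and 8 of 8 cows higher. The change was 0.36 (SE 0.07, adjusted p = 0.000337), and 9 d was lower than 1 d by the fit (-0.24, SE 0.07, adjusted p = 0.015) and in 10 of 10 cows.

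ITGB1, the beta chain shared by most matrix-binding integrins, moved little. It ran from 12.33 to 12.51 at 1 d, against 12.16 to 12.50 at -8 d, and only 2 arrays at 1 d lay above every array at -8 d. Its rise of 0.11 (SE 0.04, adjusted p = 0.047) was seen in 8 of 8 cows, but the call was lost in 22 of the 32 fits that left out an array. At 9 d it was lower than at 1 d in 10 of 10 cows (-0.15, SE 0.04, adjusted p = 0.011). That call was kept in each of the 32 omissions of an array and lost with only the cows sampled on all 3 days (adjusted p = 0.0623).

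ITGA5, which joins ITGB1 as the classical fibronectin receptor, was higher on both days after calving. Its values ran from 4.84 to 5.30 at 1 d, against 4.72 to 5.08 at -8 d, with 5 of 10 arrays above every -8 d array (0.21, SE 0.06, adjusted p = 0.011). At 9 d they ran from 4.85 to 5.30 (0.21 against -8 d, SE 0.06, adjusted p = 0.016; higher in 9 of 10 cows). The other ITGA5 probe sets gave 0.01 and -0.12 at 1 d, neither passed, and both ITGA5 calls were lost with the mean of its probe sets (0.03 at 1 d and 0.02 at 9 d).

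For ITGA2, a collagen receptor chain, 9 d was lower than 1 d (-0.23, SE 0.07, adjusted p = 0.034; 9 of 10 cows), but its other probe set passed with the opposite sign (0.20, adjusted p = 0.0215). ITGA2 therefore has no settled direction here, and its own call was lost in 10 of the 32 fits that left out an array. ITGB3, known as the beta chain of the platelet fibrinogen receptor, was higher at 9 d than at 1 d (0.23, SE 0.08, adjusted p = 0.042; 9 of 10 cows). Its used probe set averaged 11.08, while the other 3 averaged 3.69 to 4.17 and gave -0.04 to 0.10 for 9 d against 1 d. The ITGB3 call was lost in 11 of the 32 fits that left out an array. The remaining alpha chains of matrix receptors and the remaining beta chains did not pass in the time comparisons averaged over both diets. At 1 d, the alpha chains of matrix receptors that did not pass ran from -0.11 (ITGA7) to 0.18 (ITGA2). Beta chains other than ITGB1 and ITGB4 ran from -0.18 (ITGB7) to 0.09 (ITGB5).

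Of the leukocyte chains, ITGAM, found on neutrophils and macrophages, was lower at 1 d in 8 of 8 cows. It read 3.10 to 3.34 at 1 d, against 3.19 to 3.67 at -8 d, so the days overlapped and the values are near the dim end of the array. The change was -0.23 (SE 0.06, adjusted p = 0.0097), the other ITGAM probe set gave 0.02, and the call was lost with the mean of both (-0.10). ITGAL, a lymphocyte chain, gave -0.20 (SE 0.10, adjusted p = 0.152), and ITGB2, the beta chain of both, gave -0.01 (SE 0.11). ITGAL's second probe set passed at -0.23 (adjusted p = 0.0074).

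**Figure D2:**
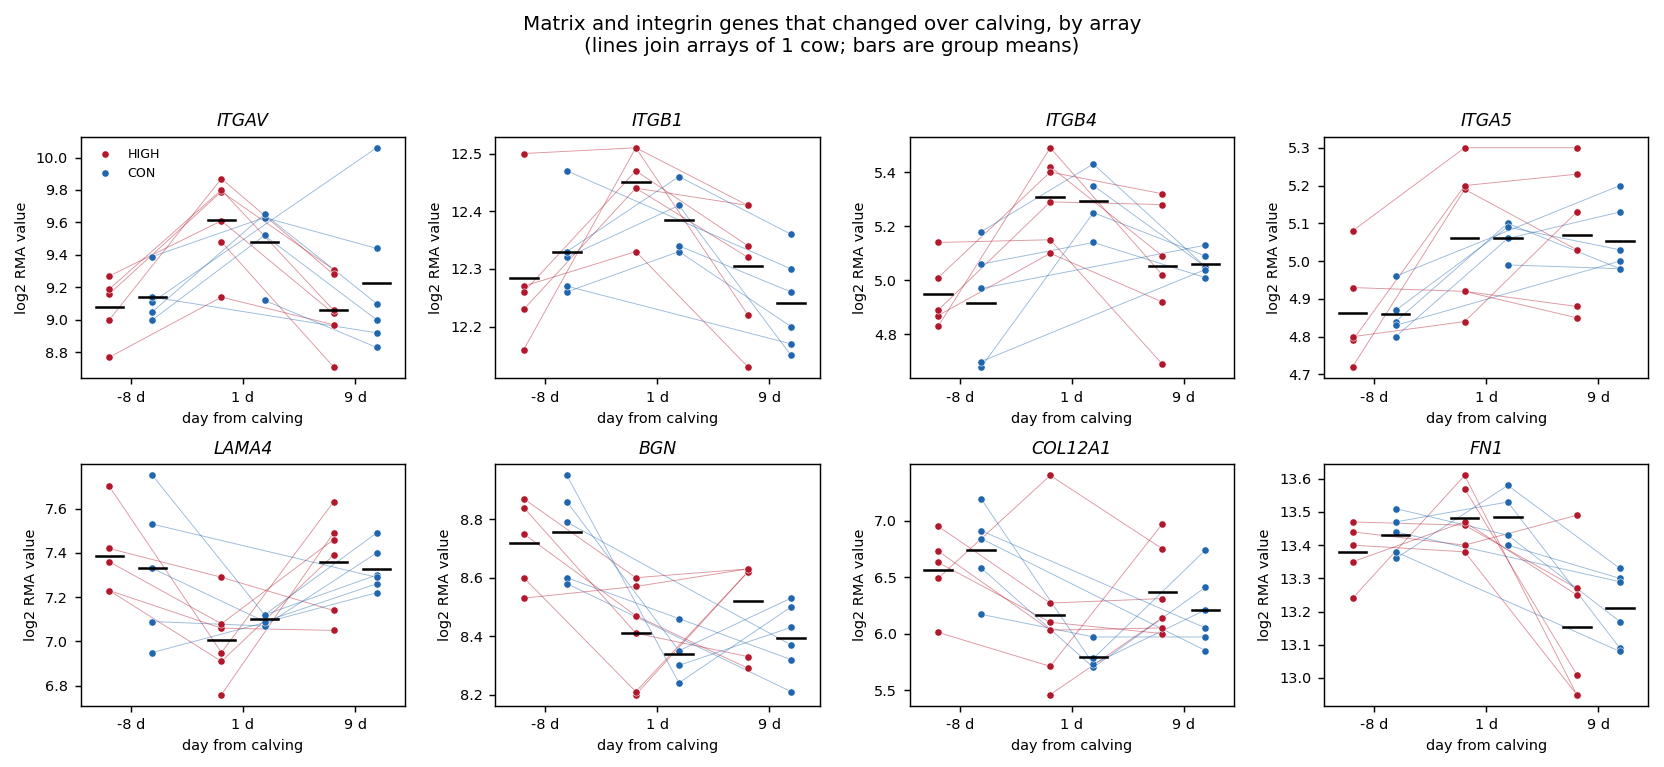
Log2 RMA values (y axis) of 8 genes that passed in a time comparison, by day from calving (x axis), with HIGH in red to the left of CON in blue; points are arrays, thin lines join arrays of the same cow, and black bars are group means. ITGAV, ITGB1 and ITGB4 peak at 1 d in both diets, LAMA4 is lowest there, BGN stays lower after calving, and FN1 is lowest at 9 d.

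BGN, a small leucine-rich proteoglycan that binds collagen fibrils, fell at calving and stayed lower. Arrays of HIGH 1 d read 8.20, 8.21, 8.41, 8.47, 8.57 and 8.60, and those of CON 1 d 8.24, 8.30, 8.35 and 8.46. At -8 d the HIGH arrays read 8.53, 8.60, 8.75, 8.84 and 8.87, and the CON arrays 8.58, 8.60, 8.79, 8.86 and 8.95. In all, 8 of 10 arrays at 1 d lay below every array at -8 d. The change was -0.37 (SE 0.07, 0.775 of the -8 d level, adjusted p = 9.97e-05), with 7 of 8 cows lower. At 9 d the HIGH arrays ran from 8.29 to 8.63 and the CON arrays from 8.21 to 8.53, still below -8 d (-0.28, SE 0.06, adjusted p = 0.0028; 8 of 10 cows). The second BGN probe set gave -0.41 and -0.23 and passed both times, and it also passed at 9 d against 1 d (0.19), where the used one gave 0.09 and did not pass.

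Its relative DCN also gave negative values against -8 d, without passing. At 1 d the change was -0.21 (SE 0.09, adjusted p = 0.111). There 5 of 8 cows were lower, with a median change of -0.03, and 3 of the 5 HIGH cows were higher. At 9 d it was -0.24 (SE 0.09, adjusted p = 0.089), with 9 of 10 cows lower. LUM, also of this family, gave 0.47 at 1 d with an SE of 0.34. LUM and DCN are neighbours in the RefSeq gene table (assembly ARS-UCD2.0).

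LAMA4, the laminin alpha chain of vessel walls, was low at 1 d. It read 6.76, 6.91, 6.95, 7.06, 7.08 and 7.29 in HIGH 1 d and 7.07, 7.09, 7.12 and 7.12 in CON 1 d. Before calving it had read 7.23, 7.23, 7.36, 7.42 and 7.70 in HIGH -8 d and 6.95, 7.09, 7.33, 7.53 and 7.75 in CON -8 d. The days overlapped, with 2 of 10 arrays at 1 d below every array at -8 d, yet 8 of 8 cows were lower at 1 d (-0.31, SE 0.08, adjusted p = 0.0070). At 9 d, 7 of 12 arrays lay above every 1 d array (0.29 against 1 d, SE 0.08, adjusted p = 0.012), and the value against -8 d was -0.02 (SE 0.08). A dimmer LAMA4 probe set gave -0.25 at 1 d and passed. No other laminin chain passed on its used probe set, and at 1 d LAMB1 gave -0.06, LAMB2 0.05, LAMB3 -0.12 and LAMC1 -0.14. LAMC1, the gamma chain of most laminins, was the case where probe sets parted most.

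Among collagens, COL12A1, which decorates the surface of collagen fibrils, showed the largest change. The HIGH 1 d arrays read 5.46, 5.71, 6.03, 6.10, 6.27 and 7.40, and the CON 1 d arrays 5.70, 5.73, 5.78 and 5.97. At -8 d the HIGH arrays read 6.01, 6.49, 6.63, 6.73 and 6.95, and the CON arrays 6.17, 6.58, 6.84, 6.91 and 7.19. Apart from HIGH 1 d replicate 6, at 7.40, the 1 d arrays were low, and 6 of 10 lay below every array at -8 d. The change was -0.67 (SE 0.17, adjusted p = 0.0047; 7 of 8 cows). Its other probe sets, at means of 4.49 and 3.30, gave -0.13 and -0.02 and did not pass, and the mean over its probe sets gave -0.27.

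COL5A3, a minor fibrillar chain, fell by 0.21 (SE 0.07, adjusted p = 0.035) with 5 of 8 cows lower. COL13A1, a transmembrane collagen of cell contacts, rose by 0.45 (SE 0.16, adjusted p = 0.043) with 6 of 8 cows higher. The COL5A3 call was lost in 10 and the COL13A1 call in 13 of the 32 fits that left out an array, and both were lost when the arrays rich in interstitial collagen were left out together. On the used probe sets, none of the other collagens passed in any of the 3 time comparisons averaged over both diets. Unused probe sets of COL6A1 and COL11A1 did pass, as given below. COL1A1 and COL1A2, the chains of type I collagen, gave -0.09 (SE 0.09) and 0.03 (SE 0.41) at 1 d, and COL3A1 gave -0.32 (SE 0.22). The basement membrane chains COL4A1, COL4A3 and COL4A4 gave -0.21 (SE 0.12), -0.02 and -0.06, and COL6A1 and COL6A2, which are neighbouring genes of the beaded filament collagen, gave -0.25 and -0.12.

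FN1, fibronectin, was lower at 9 d than on both earlier days. It read 12.95, 12.95, 13.01, 13.25, 13.27 and 13.49 in HIGH 9 d and 13.08, 13.09, 13.17, 13.29, 13.30 and 13.33 in CON 9 d. At 1 d it read 13.38, 13.40, 13.46, 13.47, 13.57 and 13.61 in HIGH cows and 13.40, 13.43, 13.53 and 13.58 in CON cows. The days were separate but for 1 HIGH 9 d array: 11 of 12 arrays at 9 d lay below every array at 1 d. The difference was -0.30 (SE 0.05, adjusted p = 0.00014; lower in 9 of 10 cows), and against -8 d it was -0.22 (SE 0.05, adjusted p = 0.0043; lower in 9 of 10 cows). The call against -8 d was lost with the mean of both probe sets (-0.08). At 1 d against -8 d FN1 gave 0.08 (SE 0.05). A second probe set, with a mean of 3.50, gave 0.05 for 9 d against 1 d.

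FBLN1 (fibulin) and FBN1 (fibrillin) build elastic and microfibrillar matrix. Averaged over both diets, they gave between -0.12 and -0.02 at 1 d and 9 d against -8 d, and neither passed. A second FBLN1 probe set gave 0.16 (SE 0.28) at 1 d and 0.08 (SE 0.27) at 9 d against -8 d, and did not pass. Of 11 metalloproteinases read from their used probe sets, MMP23 alone passed in the time comparisons averaged over both diets. It passed at 1 d against -8 d, where an unused MMP16 probe set also passed (-0.24, adjusted p = 0.0048). Within HIGH cows MMP1 passed at 9 d against -8 d (-0.27, adjusted p = 0.0349). MMP23 read 5.47 to 5.89 at 1 d, against 5.66 to 6.04 at -8 d, lower in 8 of 8 cows (-0.20, SE 0.06, adjusted p = 0.014). The other MMP23 probe set gave -0.08 and did not pass. The gelatinases MMP2 and MMP9 gave -0.13 and 0.04, the membrane-bound MMP14 gave 0.01, and the collagenases and stromelysin MMP1, MMP13 and MMP3, a cluster of near neighbours, gave -0.06, -0.01 and -0.03. No TIMP passed in any comparison on its used probe set. Values at 1 d were -0.10 (TIMP1), 0.10 (TIMP2), 0.05 (TIMP3) and 0.14 (TIMP4). An unused TIMP2 probe set passed at 1 d against -8 d with the other sign (-0.35, adjusted p = 0.0425).

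The symbols ITGB1BP1, ITGB1BP2, ITGB3BP and ITGBL1 gave -0.11 to 0.02 at 1 d and did not pass. At the dim end, 3 of 33 genes rose and 3 fell at 1 d, against 4.77% and 8.52% of all genes this dim. Both shares were above those of all genes this dim, the falls only slightly, and each rests on 3 genes. Of the 38 brighter ones, 2 rose and 3 fell, against 21.5% and 13.9% of brighter genes.

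COL1A2, COL3A1 and several genes of the same interstitial matrix varied more within groups than they differed between days. The pooled SD within groups was 1.01 for COL1A2, 0.84 for LUM, 0.78 for COL21A1, 0.54 for COL3A1 and 0.51 for SPARC, against a median of 0.18 over the 71 genes and 0.24 for DCN. HIGH 1 d replicate 6 read 10.31 for COL1A2, where the other HIGH 1 d arrays read 5.93 to 7.82, and HIGH 9 d replicate 3 read 9.54, where the other HIGH 9 d arrays read 6.25 to 7.67. These arrays were also the highest and second highest of all 32 in COL3A1 (11.01 and 10.51), LUM (7.82 and 7.59), SPARC (9.81 and 9.33), FBN1 (7.70 and 7.49) and MMP2 (7.64 and 7.08). DCN was not among them, at 10.68 and 10.42 where the median of all arrays was 10.34. Of the 71 genes, 12 were highest of all arrays in HIGH 1 d replicate 6 and 4 in HIGH 9 d replicate 3, and each array was among the top 3 for 19 genes. They come from different cows, and the same cows' other arrays did not read so high: COL1A2 ranged up to 7.67 in the first and 6.69 in the second cow on the other days.

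**Figure D3:**
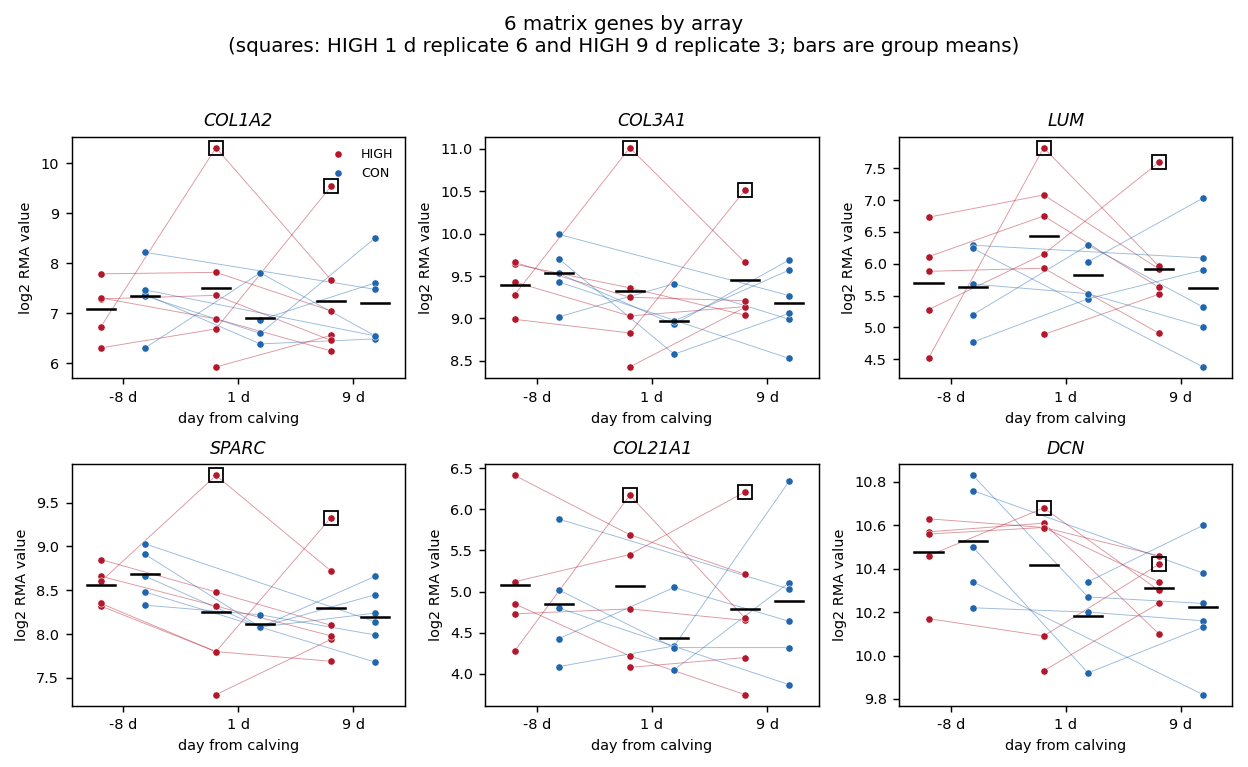
Log2 RMA values (y axis) of COL1A2, COL3A1, LUM, SPARC, COL21A1 and DCN by day from calving (x axis), HIGH in red to the left of CON in blue; points are arrays, lines join arrays of a cow, bars are group means, and squares mark HIGH 1 d replicate 6 and HIGH 9 d replicate 3. The marked arrays stand above the rest in COL1A2 (10.31 and 9.54), COL3A1, LUM and SPARC, and lie within the others in DCN.

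Markers of other cells were read in the same arrays. The 12 measured markers of stellate cells and fibroblasts averaged 6.49 in HIGH 1 d replicate 6, rank 13 of 32 arrays, and 6.74 in HIGH 9 d replicate 3, rank 1. The 8 cholangiocyte markers averaged 7.41 (rank 5) and 7.65 (rank 2), and the 14 hepatocyte markers ranked 9 and 24 by their mean. VIM, a filament protein of mesenchymal cells and 1 of these 12 markers, was highest of all arrays in the first (9.90) and second in the other (9.79). For DES, RGS5, PDGFRB, ACTA2, TAGLN and THY1 of the same list, HIGH 1 d replicate 6 was not among the top 3 arrays. HIGH 9 d replicate 3 was among them for RGS5 (6.77), TAGLN (7.19) and DES (6.42), and not for PDGFRB, ACTA2 and THY1. The part of these markers in the collagen values was not tested.

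Without both arrays, which were chosen after their values were seen, 9 genes fell at 1 d against -8 d. That is 12.7%, against 11.6% of all genes in the same fit. BGN, COL12A1, ITGAM, LAMA4 and MMP23 were kept, and SPARC (-0.58, adjusted p = 0.0019), COL3A1 (-0.49, adjusted p = 0.014), COL4A1 (-0.29, adjusted p = 0.017) and MMP2 (-0.23, adjusted p = 0.041) were added. With all arrays SPARC, a collagen-binding glycoprotein of stromal cells, gave -0.43 (SE 0.20, adjusted p = 0.129). It read 7.31 to 9.81 in HIGH 1 d and 8.08 to 8.22 in CON 1 d, against 8.32 to 8.85 in HIGH -8 d and 8.33 to 9.03 in CON -8 d, so 7 of 10 arrays at 1 d lay below every -8 d array. Since both omitted arrays belong to later days and were omitted for high values, their omission lowers 1 d and 9 d by construction. The rises at 1 d numbered 3 without them (ITGAV, ITGB4 and ITGA5), or 4.23%, against 15.5% of all genes.

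Genes with several probe sets did not always give the same answer. The 71 genes had 136 probe sets, 29 genes having 1 and the rest up to 7. For 1 d against -8 d, 11 of the 65 unused probe sets passed: 3 where the used one passed with the same sign and 8 where the used one did not pass. LAMC1 was the clearest case: the used probe set gave -0.14 (SE 0.06, adjusted p = 0.100), while 3 of the other 5 rose at 1 d by 0.56, 0.46 and 0.29 and fell by 9 d against 1 d (-0.38, -0.36 and -0.25), all passing. For TIMP2 an unused probe set passed at -0.35 (adjusted p = 0.0425) where the used one gave 0.10. Unused probe sets of COL6A1 (-0.23), COL11A1 (-0.26) and MMP16 (-0.24) also passed at 1 d. The same COL6A1 probe set passed again at 9 d against 1 d (0.27, adjusted p = 0.0027), where the used one gave 0.08. The reason was not tested.

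**Figure D4:**
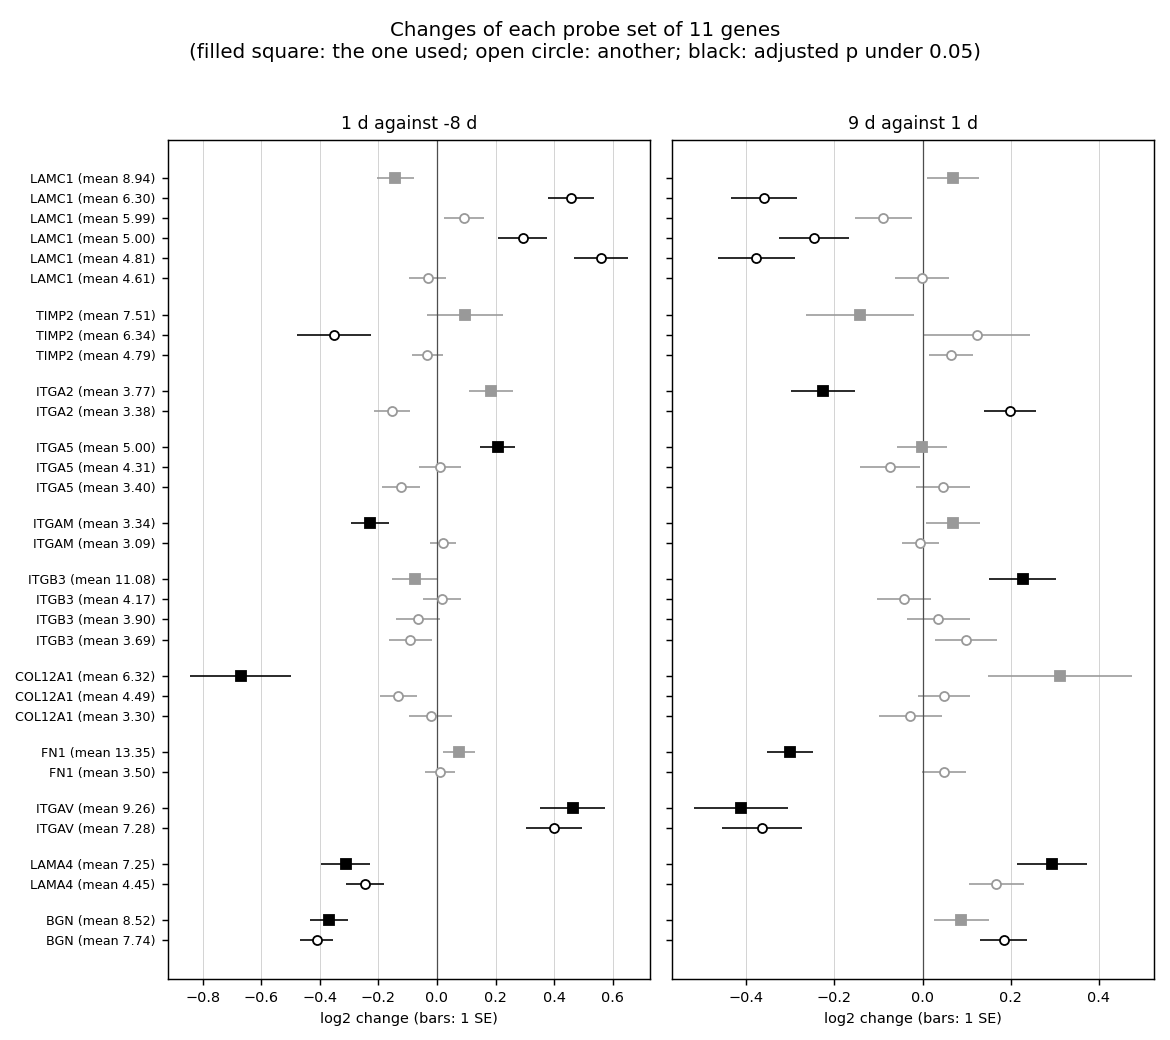
Log2 change (x axis, bars are 1 SE) of every probe set of 11 genes (y axis, with the mean value of the probe set over all arrays), for 1 d against -8 d and 9 d against 1 d; filled squares are the probe sets used, open circles the others, and black marks passed the adjusted threshold. The 2 probe sets of ITGAV, LAMA4 and BGN lie together, while those of LAMC1 and ITGA2 fall on both sides of 0.

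The diet comparison asks whether prepartum energy intake altered these genes on a given day. No gene of the 71 passed for HIGH against CON on any day, against 0% of all genes at -8 d, 0.0109% (1 gene) at 1 d and 0% at 9 d. At unadjusted p under 0.05 there were 3, 4 and 4 of 71, where 4.29%, 8.25% and 3.04% of all genes had such p. The difference between diets in the change from -8 d passed for no gene at 1 d or 9 d either, against 0% and 0% of all genes. An unadjusted p under 0.05 was found for 3 of 71 at 1 d, against 7.57% of all genes, and for 3 at 9 d, against 2.91%. The 95% intervals lay inside a 1.5-fold difference either way for 61 genes at -8 d, 57 at 1 d and 62 at 9 d. For the others, larger differences between diets are not excluded by their intervals, which were widest for COL1A2 (half-widths of 1.24, 1.26 and 1.13 on the log2 scale).

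Genes with the smallest p are given by value, none having passed. MMP19, a broadly acting metalloproteinase, read 7.75, 7.75, 7.88, 8.03 and 8.14 in HIGH -8 d, against 7.41, 7.42, 7.46, 7.49 and 7.58 in CON -8 d, without overlap (0.43, SE 0.19, unadjusted p = 0.028). On later days the diets overlapped. MMP1 read 3.40 to 3.67 in HIGH -8 d, against 3.12 to 3.54 in CON -8 d (0.23, SE 0.08, unadjusted p = 0.0090). COL26A1 read 6.76 to 7.01 in HIGH 1 d, against 7.03, 7.09, 7.14 and 7.21 in CON 1 d, again without overlap (-0.21, SE 0.07, unadjusted p = 0.0089). MMP15 (-0.29, SE 0.10) and COL4A4 (-0.30, SE 0.11) were next at 1 d, with overlapping groups. At 9 d the smallest p belonged to COL5A2 (0.31, SE 0.13), COL10A1 (0.22, SE 0.10) and FBLN1 (0.24, SE 0.11).

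COL10A1, a network collagen of growth cartilage read here near the dim end, had the smallest p for diet by time. It read 3.31 to 3.67 in HIGH 9 d and 2.92 to 3.48 in CON 9 d, against 2.92 to 3.41 in HIGH -8 d and 3.22 to 3.55 in CON -8 d. The difference of differences was 0.46 (SE 0.13, unadjusted p = 0.0014), and its adjusted p was 0.9998. COL26A1 (-0.30, SE 0.10), COL2A1 (-0.33, SE 0.13) and MMP1 (-0.27, SE 0.11) were the leading values at 1 d, and MMP1 (-0.28, SE 0.10) and COL5A2 (0.40, SE 0.18) came next at 9 d. TIMP3, an inhibitor held in the matrix, gave 0.38 at 1 d (interval 0.04 to 0.71) and 0.31 at 9 d (interval 0.00 to 0.61), with adjusted p of 0.557 and 0.998.

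**Figure D5:**
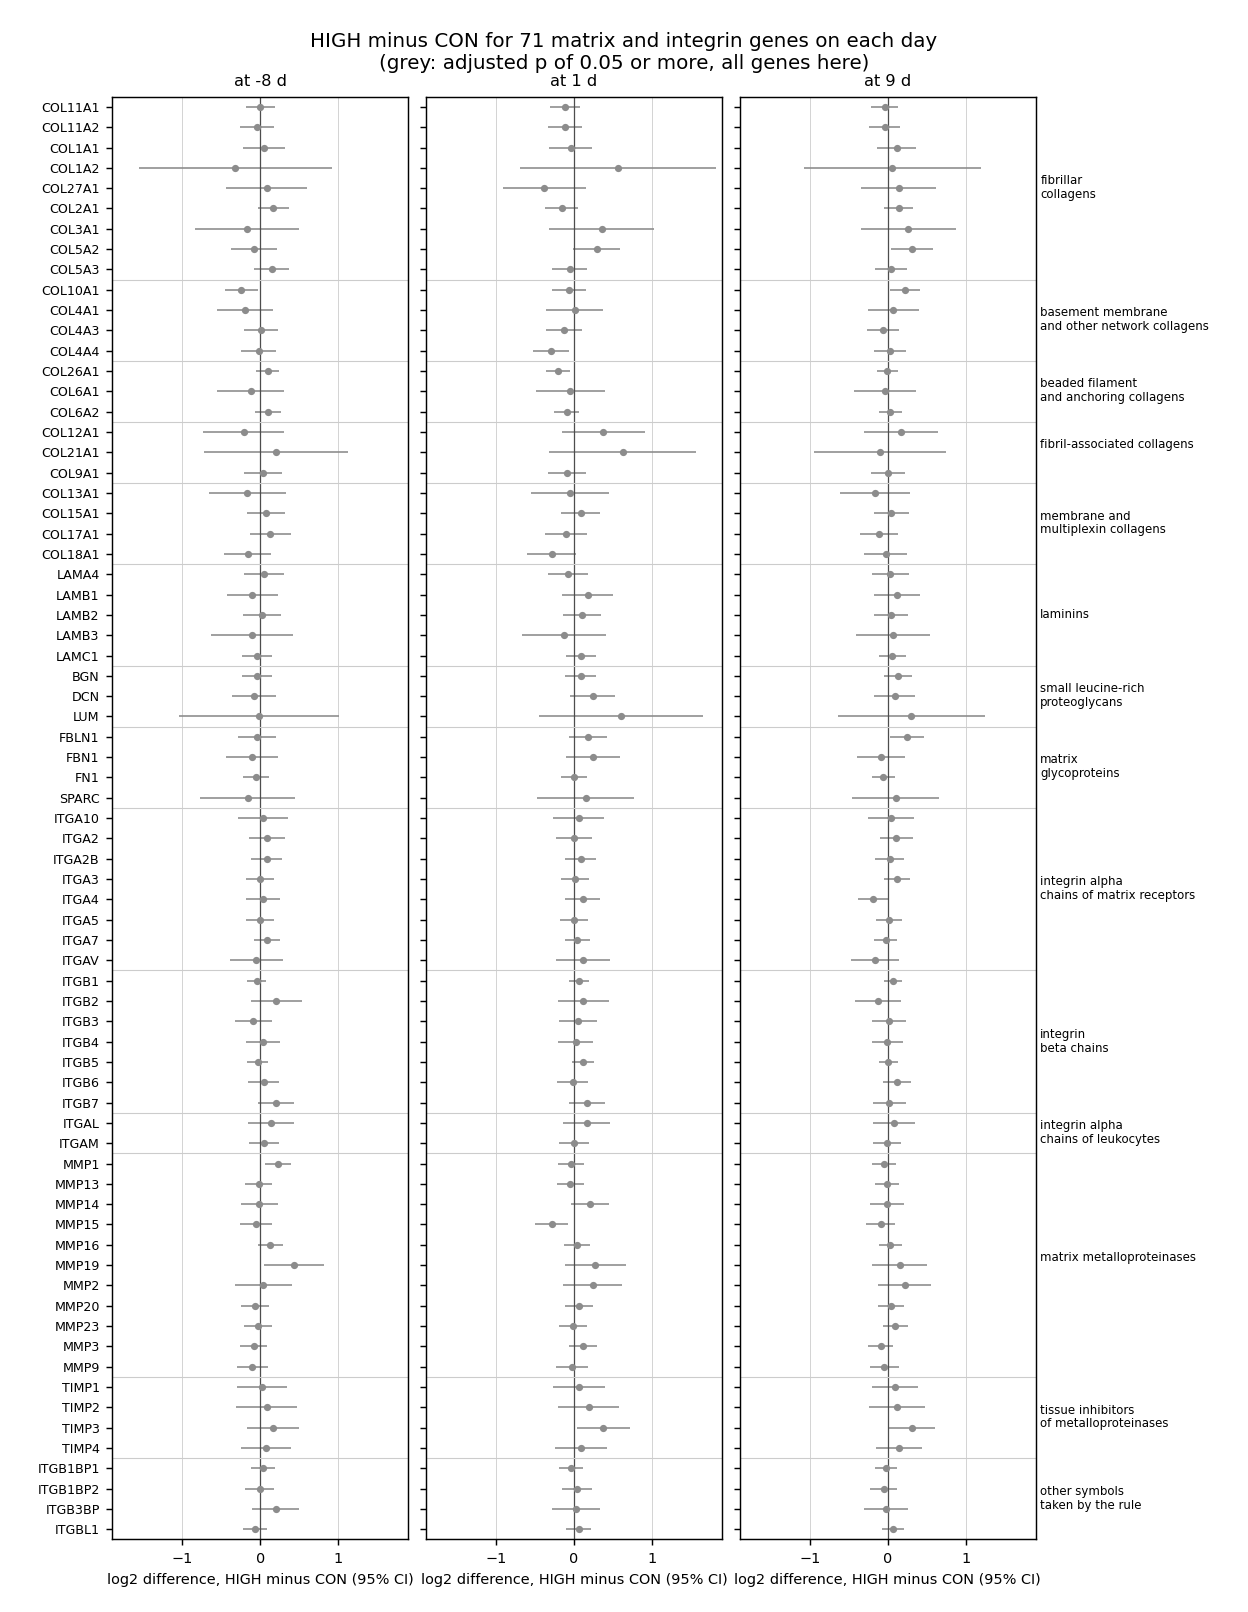
HIGH minus CON on the log2 scale (x axis) for each of the 71 genes (y axis, grouped by role), in a panel for each day; bars are 95% confidence intervals. No gene passed the adjusted threshold, MMP19 at -8 d reads 0.43, and the intervals of COL1A2, LUM and COL21A1 are the widest.

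Within a diet, more genes passed in HIGH than in CON cows, as over the whole array. CON 1 d held 4 arrays and HIGH 1 d held 6, so these counts do not measure a difference between diets. For 1 d against -8 d, 10 of 71 passed in HIGH cows (14.1%, against 21.6% of all genes). In CON cows 3 passed (4.23%, against 8.03% of all genes). For 9 d against -8 d these were 2 in HIGH (2.82%, against 5.12% of all genes) and 1 in CON cows (1.41%, against 2.65%). For 9 d against 1 d they were 3 in HIGH (4.23%, against 12.3%) and 0 in CON cows (0%, against 3.59%). In that CON comparison 5 of 71 had an unadjusted p under 0.05, against 17.9% of all genes. These counts depended on single arrays. At 1 d the HIGH count was 5 without HIGH -8 d replicate 2 and 6 without replicate 1 or 3 of that group, and the CON count was 1 without CON 1 d replicate 2, 3 or 4. For 9 d against -8 d the HIGH count was 0 without HIGH -8 d replicate 1, 2 or 3 or HIGH 9 d replicate 1, 4 or 6, and 1 without HIGH -8 d replicate 4 or HIGH 9 d replicate 3 or 5. The CON count was 0 without CON -8 d replicate 2, 3 or 4 or CON 9 d replicate 1 or 6. Over the other settings the 1 d counts ran from 6 to 12 in HIGH and 0 to 4 in CON cows. BGN gave -0.31 in HIGH and -0.43 in CON cows at 1 d, and ITGB4 gave 0.36 and 0.37, all passing. ITGAV gave 0.55 (passing) in HIGH and 0.38 (adjusted p = 0.192) in CON cows, and COL12A1 gave -0.38 (adjusted p = 0.279) and -0.96 (passing). The test of the difference between diets passed for none of them (ITGAV 0.17, SE 0.22; COL12A1 0.59, SE 0.34).

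Genes that act on or with the matrix were counted from lists chosen with earlier results of these data known. They are read against all genes, of which 16.5% rose and 12.3% fell at 1 d against -8 d, 7.79% and 5.08% at 9 d against -8 d, and 7.44% and 10.0% at 9 d against 1 d. Of 24 measured genes of collagen processing and crosslinking, 11 rose and 3 fell at 1 d against -8 d (median 0.07). P4HB (a subunit of prolyl hydroxylase and a disulphide isomerase; 0.59), KDELR3 (a retrieval receptor of the endoplasmic reticulum; 1.37), PLOD3 (a lysyl hydroxylase; 0.53) and COLGALT2 (a collagen galactosyltransferase; 0.51) had the smallest p. P4HB also serves secretory proteins other than collagen. By 9 d against -8 d, 4 rose, among them P4HB (0.32), KDELR3 (0.89) and PCOLCE (0.30), and 2 fell, among them CRTAP (-0.29). By 9 d relative to 1 d, 0 rose and 7 fell, among them the crosslinking enzyme LOXL4 (-1.18) and the prolyl hydroxylase P3H1 (-0.35).

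Other matrix glycoproteins and proteoglycans, 41 measured, had 0 rising and 4 falling at 1 d (median -0.06): VTN (vitronectin, a plasma ligand of ITGAV; -0.20), SPARCL1 (-0.54), COMP (-0.19) and TGFBI (-0.27). The falls were 4 of 41, against 12.3% of all genes. At 9 d against -8 d, 1 rose (THBS1, thrombospondin; 0.39) and 6 fell, among them ASPN (-0.54), SPARCL1 (-0.55) and TGFBI (-0.36). For 9 d against 1 d, 3 rose (THBS1 0.41, SPON2 0.22 and VTN 0.17) and 2 fell. Of 25 other proteases and inhibitors, 7 rose and 0 fell at 1 d, including A2M, a broad protease trap (1.21), SERPINF2, the plasmin inhibitor (0.44), PLG, plasminogen itself (0.21), and HYAL1 (0.46). At 9 d against -8 d, 0 rose and 1 fell (MEP1B, -0.54), and at 9 d against 1 d, 0 rose and 3 fell (A2M -1.10, SERPINF2 -0.53 and PLG -0.21).

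In TGF-beta signalling and stellate cell activation, 25 measured, 2 rose and 3 fell at 1 d. TGFB2, a ligand, rose by 0.68 and its receptor TGFBR2 fell by 0.34, and SMAD2 gave 0.22 and ACTA2, the actin of contractile cells, -0.55. TGFB2 was higher still at 9 d (1.14 against -8 d), where CCN1 also rose (0.88) and INHBA, an activin chain, fell by 1.22. By 9 d relative to 1 d, TGFB2 (0.46) and ACTA2 (0.52) were the 2 that rose and INHBA (-0.95) the 1 that fell.

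Of 31 focal adhesion genes, which include ITGB1BP1 of the 71, 4 rose and 4 fell at 1 d, against 16.5% and 12.3% of all genes, led by CD81 (-0.36), PTK2 (focal adhesion kinase; 0.21), SHC1 (0.25) and TNS1 (-0.19). At 9 d against -8 d, ILK rose (0.20) and CD81 fell (-0.17), and at 9 d against 1 d, CD81 (0.19) and ACTN4 (0.16) rose. Among 17 counter-receptors and soluble ligands of integrins, 3 rose and 3 fell at 1 d, including FGB (fibrinogen; 0.88), VCAM1 (the vessel ligand of ITGA4; -0.72) and CDH1 (-0.40). At 9 d against -8 d, 1 rose (F11R, 0.25) and 4 fell, among them ICAM3 (-0.57), VCAM1 (-0.45) and ICAM1 (-0.21). For 9 d against 1 d, 2 rose, among them VTN, and 4 fell, among them FGB (-1.19), FGG (-0.16) and ICAM3 (-0.38).

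Some markers of liver and blood cells also passed on these days, where 16.5% of all genes rose and 12.3% fell at 1 d. At 1 d against -8 d, 1 of 12 stellate and fibroblast markers rose (LRAT, the retinol-storing enzyme, 0.25) and 1 fell (ACTA2). The mean of these 12 markers ran from 6.11 to 6.51 in HIGH 1 d and 6.36 to 6.53 in CON 1 d, against 6.27 to 6.72 in HIGH -8 d and 6.37 to 6.58 in CON -8 d. Of 13 endothelial markers 1 rose (TIE1, a receptor of vessel walls, 0.24) and 1 fell (EMCN, -0.66). Of 8 neutrophil markers 4 rose and 0 fell (S100A8 1.66, S100A12 2.43, LTF 1.54 and S100A9 0.80), and their mean ran from 6.52 to 7.64 in HIGH 1 d and 6.38 to 7.15 in CON 1 d, against 6.15 to 6.29 in HIGH -8 d and 5.79 to 6.20 in CON -8 d. Of 15 T and NK cell markers, 0 rose and 5 fell, and of 8 cholangiocyte markers, 0 rose and 2 fell. Kupffer cell markers gave 1 rising and 1 falling of 10, platelets 0 and 1 of 2, B and plasma cells 0 and 0 of 5, erythroid cells 0 and 0 of 6, and hepatocytes 5 and 6 of 14. Between the 9 d and -8 d arrays, where 7.79% of all genes rose and 5.08% fell, counts rising and falling were 0 and 1 for stellate cells, 0 and 0 for endothelial, Kupffer and B cells, 1 and 0 for neutrophils, 0 and 1 for T and NK cells, platelets and cholangiocytes, 0 and 2 for erythroid cells (HBB -1.59 and HBA -0.23), and 2 and 3 for hepatocytes. By 9 d relative to 1 d, where 7.44% of all genes rose and 10.0% fell, 3 neutrophil markers fell and 0 rose (S100A8 -1.37, S100A12 -1.35 and S100A9 -0.59). Over the same days 2 hepatocyte markers rose and 4 fell, 1 stellate marker rose and 3 fell, 2 erythroid markers fell, and 1 endothelial (EMCN, 0.37) and 1 T cell marker (CD5, 0.22) rose. Kupffer, B cell, platelet and cholangiocyte lists had 0 either way. No list had a gene past the threshold for HIGH against CON on any day. The part of these cells in the values of ITGAM, ITGAL, ITGB2, ITGB3, ITGAV, LAMA4, BGN, FN1 and COL12A1 was not tested.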

How the data were processed

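Liver RNA was hybridised to Affymetrix bovine arrays. The deposited values are on the log2 scale, made by the authors with RMA in Affymetrix Expression Console 1.1, per the submitters' processing notes; further settings are not given in the sources used here. Tests covered 24016 of 24128 probe sets, without the 112 controls; 13292 had 1 gene symbol (9155 genes), 86 had several and 10638 had none, and only those with 1 were named. Values ran from 2.35 to 15.

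limma 3.58.1 in R 4.3.3 estimated a mean for each of the 6 groups, treating cow as a random block (correlation 0.138, 26 residual degrees of freedom, eBayes with a mean-variance trend). Tests were two-sided, with Benjamini-Hochberg adjustment over all probe sets of a comparison and a threshold of 0.05. Each test set a difference against the residual variation of the arrays, pooled over the 6 groups, with arrays of the same cow taken as correlated. The numbers of cows (12) and arrays (32) limit the precision. Cow numbers in the labels pair the arrays: residuals of the same cow correlated in all 28 pairs (lowest r 0.229). Scripts were tested on simulated data.

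Named genes were the 12 largest rises and 12 largest falls past the threshold per time comparison, the 3 smallest p per diet comparison where fewer passed, fixed core matrix genes, the extremes of level per role, and the 4 smallest p past the threshold per pathway list; other values named were chosen after they were seen. The genes and lists were chosen with earlier results of these data known. Alternatives varied the block, cows, filter on dim probe sets, trend, array weights, centring, normalisation and probe set rule, and left out each array. No sequences were used here.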

Additional observations from a re-analysis of the deposited data

Results flagged for a closer look

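Among 52 named genes in 6 groups each, 18 of 312 sets of arrays held an array far from the others of its group (5.77%, where chance gives about 1 in 20). Arrays above the rest of their group were COL1A1 in HIGH -8 d replicate 1 (7.05, next 6.68), COL3A1 in HIGH 1 d replicate 6 (11.01, next 9.36), COL5A3 in HIGH 1 d replicate 5 (5.41, next 5.06) and COL9A1 in HIGH 9 d replicate 1 (4.18, next 3.83). FBN1 stood high in HIGH 1 d replicate 6 (7.70, next 7.07), CON -8 d replicate 4 (7.24, next 7.09) and CON 9 d replicate 4 (7.33, next 6.97). ITGAL stood high in HIGH -8 d replicate 1 (6.99, next 6.63), MMP14 in CON -8 d replicate 1 (6.41, next 5.96), and SPARC in CON 1 d replicate 1 (8.22, where the others all read 8.08).

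Arrays below the rest of their group were TIMP4 in HIGH -8 d replicate 4 (4.58, next 4.72), TIMP2 in HIGH 1 d replicate 3 (7.16, next 7.68), MMP13 in HIGH 9 d replicate 3 (2.74, next 2.95) and COL5A3 in CON -8 d replicate 3 (4.98, next 5.25). The same held for ITGB3 in CON 1 d replicate 1 (10.65, next 11.02), MMP23 in CON 1 d replicate 2 (5.50, next 5.72), COL1A1 in CON 9 d replicate 5 (6.51, next 6.58) and MMP2 in CON 9 d replicate 6 (6.06, next 6.42).

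COL2A1, the fibrillar collagen of cartilage, was lower at 1 d than at -8 d in all 5 HIGH cows with both days and higher in all 3 CON cows, with a median change of -0.16 over the 8 cows. The fitted difference between diets was -0.33 (SE 0.13, unadjusted p = 0.02, adjusted p = 0.625) and did not pass.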

How the results depend on the processing

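BGN at 1 d and 9 d against -8 d, ITGAV at 1 d against -8 d and 9 d against 1 d, ITGB4, LAMA4 and MMP23 at 1 d against -8 d and FN1 at 9 d against 1 d kept their calls in every setting run. The calls of COL12A1 at 1 d, FN1 and ITGA5 at 9 d against -8 d, and ITGB1, ITGB4 and LAMA4 at 9 d against 1 d were lost with only cows sampled on all 3 days, and those of ITGA5 (1 d and 9 d), ITGAM and FN1 (9 d against -8 d) with the mean of all probe sets. Calls of ITGB1, COL13A1 and COL5A3 at 1 d and of ITGA2 and ITGB3 at 9 d against 1 d were lost in 10 to 22 of 32 omissions of an array and in 4 to 6 other settings. With all arrays, 5 genes rose and 6 fell at 1 d against -8 d, 1 rose and 2 fell at 9 d against -8 d, and 2 rose and 5 fell at 9 d against 1 d. With no replicate block, 3 rose at 1 d and 1 at 9 d against 1 d; with cow as a fixed replicate block, 1 rose at 9 d against 1 d, and diet contrasts could not be estimated. With only cows sampled on all 3 days, 3 rose at 1 d, 0 at 9 d against -8 d, and 0 rose and 2 fell at 9 d against 1 d, from fewer arrays. With only brighter probe sets, 2 rose at 1 d, 0 rose and 4 fell at 9 d against -8 d, and 3 fell at 9 d against 1 d; dim genes were not tested there. With array weights, 3 rose at 1 d, 4 fell at 9 d against -8 d and 1 rose at 9 d against 1 d. With the mean of all probe sets, 0 rose at 9 d against -8 d and 1 at 9 d against 1 d. LAMC1 reversed there, to 0.20 at 1 d against -8 d and -0.17 at 9 d against 1 d, past the threshold in both. Without both arrays highest in COL1A2, an alternative chosen after seeing the data, 3 rose at 1 d (4.23%, against 15.5% of all genes). In that fit 4 fell at 9 d against -8 d (5.63%, against 4.47% of all genes), with COL12A1 and SPARC added to BGN and FN1. At 9 d against 1 d, 1 rose (1.41%, against 6.44% of all genes). For the other settings the share of all genes is not given here. Where no cause is given, the cause was not tested. Leaving out each array gave 3 to 5 rising and 5 to 8 falling at 1 d, 1 to 2 rising and 2 to 4 falling at 9 d against -8 d, and 1 to 3 rising and 4 to 5 falling at 9 d against 1 d. The rises at 1 d were 3 without HIGH -8 d replicate 1, 3 or 5, HIGH 1 d replicate 3, 5 or 6, CON -8 d replicate 2 or 3, or CON 1 d replicate 1 or 3. At 9 d against -8 d, 4 fell without CON -8 d replicate 1 and 2 rose without CON 9 d replicate 2. The rises at 9 d against 1 d were 1 without HIGH 1 d replicate 3, HIGH 9 d replicate 2, 4 or 6, CON 1 d replicate 1, or CON 9 d replicate 1, 2, 4, 5 or 6. Diet and diet by time counts were 0 in every setting that gave them.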
